A study of Rattus norvegicus with 3 samples.

Results

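Mock immunoprecipitation peaks that touched no estrogen receptor peak made up most of the background list of this experiment: 13890 of the 15283 mock peaks on the 18 chromosomes kept, or 90.9% (95% exact binomial interval 90.4 to 91.3). They are 13890 of 33825 valid peaks in the 3 lists of the series. A mock peak was taken when it was 1 to 20000 bp wide and shared not even 1 bp with a peak of the estrogen receptor alpha (ERα) list or the estrogen receptor beta (ERβ) list. Chromosomes 1 to 9, 11 and 13 to 20 were kept, and chromosomes 10, 12, X, Y, the mitochondrial genome and unplaced scaffolds were not. Positions alone chose the peaks, so their share, and whatever follows from a peak being wide, is a description and not a result.

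The series holds 3 chromatin immunoprecipitation sequencing (ChIP-seq) libraries, 1 per antibody, from enriched germ cells of Holtzman rats aged 75 to 90 days. The antibodies were directed against ERα, against ERβ and, for the mock pulldown, against rabbit immunoglobulin G (IgG). The animals received no treatment, and all 3 groups share strain, age and cell preparation. How many animals went into each library is not stated in the labels. Enrichment used hypotonic lysis of interstitial cells and mesh filtering of Sertoli cells, so other testicular cells may remain, and peak lists hold no expression by which to check them. With 1 library per antibody no value has a replicate error, no test between antibodies was made, and intervals cover counting error only. The lists name no genome build. They use scaffold names that belong to the rat assembly Rnor_6.0. Positions are as deposited, with starts counted from 1. Genes, exons and base sequences at these positions were not analysed here.

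A mock pulldown uses an antibody with no intended target in the chromatin, so its reads report DNA that is recovered by beads, by unspecific antibody contact or by uneven amplification and mapping. Such background is known to gather where chromatin is open and easily sheared, and where repeated sequence is present in more copies than the reference genome shows. Adult germ cells run from spermatogonia through meiotic spermatocytes to spermatids, whose histones are replaced by protamines late in their development.

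Mock peaks without a receptor peak were low and narrow, as were receptor peaks touching neither other list. Their scores ran from 30 to 131.83 with a median of 34.5 (95% interval of the median 34.4 to 34.65, n = 13889, as 1 peak has no readable score). The middle 50% lay between 32 and 38.88, and the 90th percentile was 43.95. A score of 50 or more was reached by 549 peaks, or 3.95% (exact binomial interval 3.63 to 4.29), and a score of 100 or more by 3. Widths ran from 261 to 1482 bp with a median of 565 bp, and the middle 50% lay between 519 and 596 bp. Together the peaks covered 7889 kb, which is 0.322% of the 2451 Mb between each chromosome's start and its furthest peak in any list. ERβ peaks touching neither other list had a median score of 33.97 and a median width of 555 bp (n = 10836). For such ERα peaks the medians were 38.48 and 570 bp (n = 4019). These lists were scored separately, and the differences were not tested.

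The 1393 mock peaks that did touch a receptor peak were higher and wider. Their median score was 47.38 and their median width 622 bp, with a highest score of 3100. The step lay mainly at peaks touching both receptor lists. The 682 mock peaks touching both had a median score of 79.36, against 39.31 for the 255 touching ERα alone and 37.85 for the 456 touching ERβ alone. A score of 50 or more was held by 74.2% of the peaks touching both lists, 20.4% of those touching ERα alone and 20.6% of those touching ERβ alone. A wider peak has more chance to overlap another, so width and rule are tied, and these values were set side by side without a test.

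Score and width of the peaks were bound to each other by a simple rule that the score distribution alone hides. Plotted against width, the scores fell on separate bands. Within a band the score was flat up to 400 bp and then declined smoothly with width. Each band matched −10 log10 of the Poisson probability of at least k events, where k is a whole number, called the level here. The expected number of events was 1 fixed rate for the whole list times the peak width, with widths under 400 bp counted as 400 bp. The rate was set in each list from its most common score among peaks of up to 400 bp, which was 40.97 in the mock list at level 7. With that single value, every one of the 15302 mock peaks with a score under 75, on any chromosome or scaffold, came within 0.05 of a whole level, with a largest deviation of 0.0105. Assigning the same score to any other level between 4 and 11 brought at most 2.51% within 0.05.

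**Figure D1:**
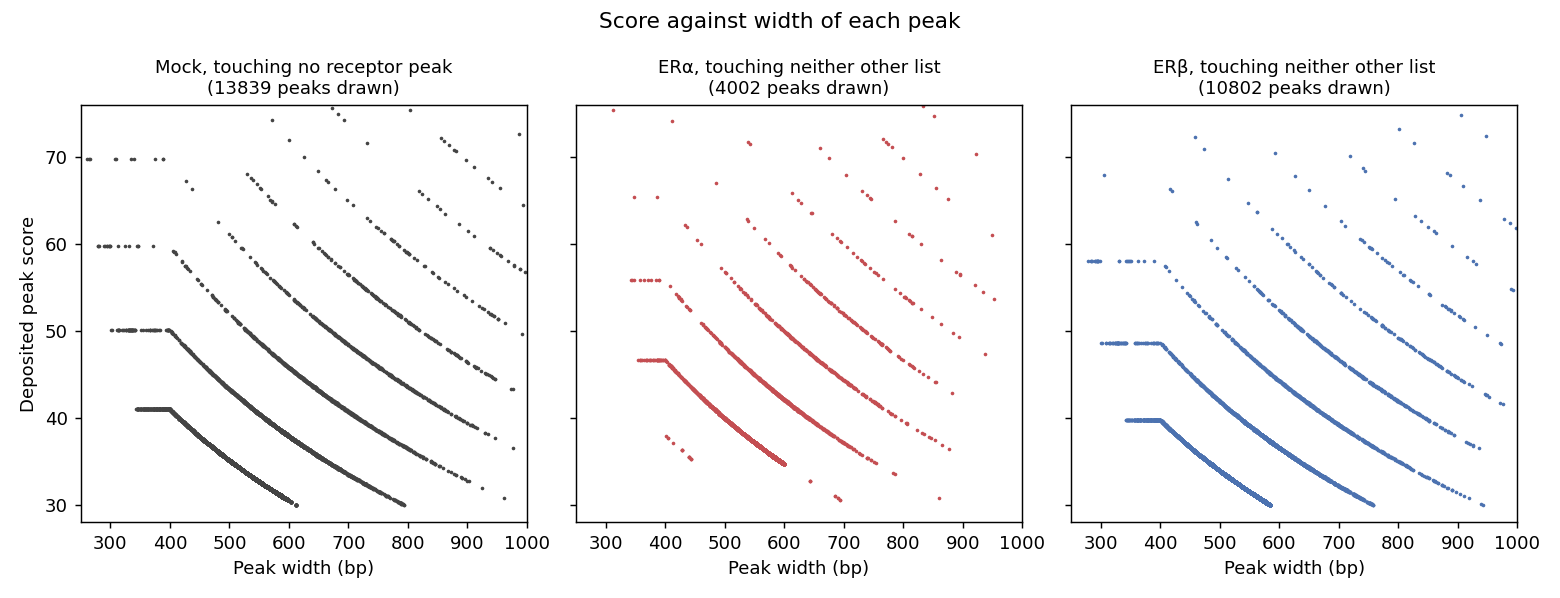
Deposited score (vertical axis, no unit given) against peak width in bp (horizontal axis) for mock peaks touching no receptor peak and for ERα and ERβ peaks touching neither other list. Each point is 1 peak, scores above 76 and widths above 1000 bp lie outside the frame, and the points form separate bands that are flat up to 400 bp, the lowest mock band at a score of 40.97.

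The same relation held in the receptor lists, and the lowest level was 7 in all 3 lists. All 12240 ERβ peaks and all 4860 ERα peaks with scores under 75 came within 0.05 of a level. The fitted rates were 0.994 expected events per 400 bp for mock, 1.04 for ERβ and 1.11 for ERα. The most common narrow-peak score stood for level 7 in the ERβ list, at 39.73, as in the mock list, but for level 8 in the ERα list, at 46.66. Among the peaks with scores of 75 or more, 95.3% of 447 mock, 99.2% of 488 ERβ and 97.1% of 487 ERα peaks also came within 0.05. A level may stand for a number of reads or fragments, but no label or file header states the caller's formula or settings. For scores under 75 no rate that varies along the genome was needed to return the deposited score in any list. The relation was found after the data were seen.

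Read by level, most of the mock background sat at the lowest step of the list. Level 7 held 9142 of the 13889 scored peaks without a receptor peak (65.8%), level 8 held 2879 (20.7%), level 9 held 1104 (7.95%) and level 10 held 441 (3.18%). Levels 11 to 15 held 173, 65, 36, 23 and 18 peaks, and 8 peaks had level 16 or more, up to 23. Level 7 peaks spanned scores of 30 to 40.97 and widths of 343 to 612 bp, with a median of 549 bp. The widest of them stood at the lowest score of the list, so the width of a level 7 peak ended where its score reached 30. Level 8 peaks spanned scores of 30.01 to 50.09 and widths of 301 to 793 bp. A given score therefore mixes levels: the lowest scores, 30 and 30.01, were those of level 7 peaks of up to 612 bp and level 8 peaks of up to 793 bp, while 50.09 occurred at level 8 in peaks of up to 400 bp. Over all scored peaks Spearman's rho of score with width was -0.15 (n = 13889, a description across peaks), although higher levels went with wider peaks, from a median of 549 bp at level 7 to 724 bp at level 10.

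The share of mock peaks without a receptor peak declined with level. It was 96.2% at level 7 (9142 of 9508), 93.3% at level 8, 89.3% at level 9 and 82.0% at level 10. It went on to 69.2% at level 11, 53.3% at level 12 and 42.4% at level 13. At level 16 or more, 8 of 337 mock peaks (2.37%, exact binomial interval 1.03 to 4.62) had no receptor peak. By score, the share was 96.2% from 30 to 32, 90.1% from 40 to 50, 59.4% from 50 to 100 and 1.06% (3 of 282) from 100. Levels 14 and 15, with 31.9% and 36.7% of 72 and 49 mock peaks, had intervals that overlap broadly.

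**Figure D2:**
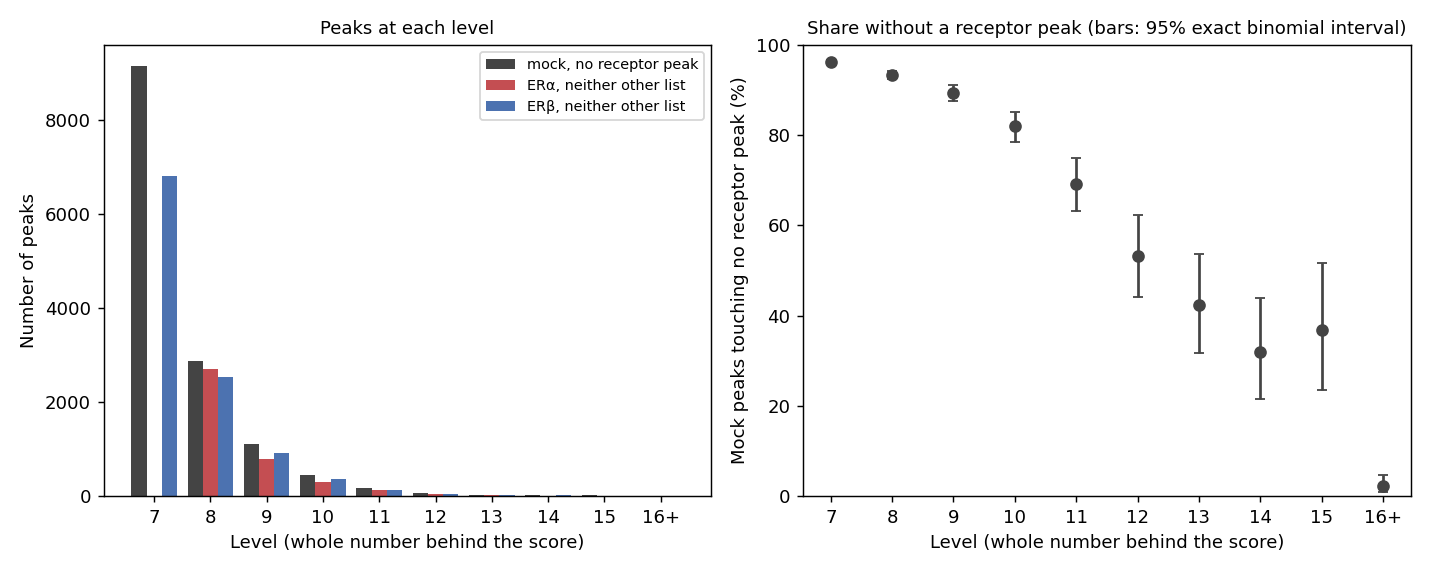
Left, number of peaks (vertical axis) at each level (horizontal axis) for mock peaks touching no receptor peak and for ERα and ERβ peaks touching neither other list. Right, share in percent of mock peaks at each level that touch no receptor peak, with 95% exact binomial intervals, running from 96.2% at level 7 to 2.37% at level 16 or more.

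Much of the difference in length between the lists lay at level 7, more so for ERα against either other list than for mock against ERβ. On the 18 chromosomes the lists held 15283 mock, 12184 ERβ and 5156 ERα peaks. At level 8 or more they held 5774, 5047 and 5141, which is 37.8%, 41.4% and 99.7% of each list. Among peaks touching neither other list, level 7 held 65.8% for mock, 62.8% for ERβ and 0.373% (15 peaks) for ERα. When all 3 lists were restricted to level 8 or more, a choice made after the data were seen, 83.4% of mock peaks (82.4 to 84.4), 81.7% of ERβ peaks (80.6 to 82.7) and 81.2% of ERα peaks (80.1 to 82.3) touched neither other list. Over all valid peaks the shares were 90.9%, 88.9% and 77.9%. At level 10 or more they were 60.2% of 1453 mock, 53.8% of 1319 ERβ and 51.4% of 1263 ERα peaks. Level 8 in lists of different fitted rates is not the same signal over its rate, so these shares stand side by side and were not tested.

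The strongest mock peaks without a receptor peak were few, and most lay beside one. The highest was chr2:483707-484847, with a score of 131.83 at level 23, 1141 bp wide. An ERα peak of score 85.63 lay 268 bp from it and an ERβ peak of score 39.72 lay 1.22 kb from it. The next was chr14:22448510-22449790, with a score of 113.09 at level 22 and an ERβ peak of score 30.01 at 501 bp. The third, chr4:104395520-104395802, was of another kind. It was 283 bp wide, had a score of 102.3 at level 13, and lay 113 kb from the nearest receptor peak.

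Of the 7 remaining peaks among the 10 highest, 5 lay within 1327 bp of a receptor peak. These were chr14:21649581-21650890 with a score of 94.78, chr9:7510817-7511617 with 93.5, chr2:194769646-194771127 with 93.42, chr3:21562936-21564077 with 88.18 and chr2:52668707-52669575 with 79.79. Their receptor peaks stood 708, 709, 126, 1213 and 1327 bp away. The other 2 lay further off. At chr15:74601179-74601972, with a score of 84.92, the distance was 9947 bp, and at chr14:92721717-92722565, with 81.11, it was 21874 bp.

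Among the 5 widest peaks, 3 were also among the 10 highest. The widest was chr2:194769646-194771127 at 1482 bp. Those outside the 10 highest were chr2:156957896-156959197, with 1302 bp and a score of 72.05 at level 17, and chr16:21802682-21803919, with 1238 bp and a score of 60.42 at level 15. The latter lay 313 bp from an ERβ peak of score 50.15 and 396 bp from an ERα peak of score 285.83. Only 6 of the 13890 peaks were 1200 bp or wider, against 140 in all mock peaks of these chromosomes.

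The limit of the rule passed through a continuum of distances. Just inside it, chr1:56007578-56008163 (score 46.57) lay 1 bp from an ERβ peak, chr8:40926707-40927102 (50.09) 4 bp, chr2:194731978-194732521 (40.77) 6 bp, chr7:19724759-19725367 (37.46) 7 bp and chr7:19637983-19638623 (43.59) 11 bp from a receptor peak. Just outside it, chr1:39106311-39107049 (46.41) and chr16:55784412-55784944 (33.47) shared 1 bp with a receptor peak. The peak chr14:22417621-22418231 (37.36) shared 2 bp, chr15:5504102-5504663 (32.13) 6 bp and chr1:124298446-124299026 (31.3) 8 bp. In all, 63 peaks lay under 100 bp from a receptor peak without touching it, and 68 mock peaks touched one by under 100 bp.

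Most of the mock background lay within 100 kb of a receptor peak without touching one. The median distance to the nearest peak of either receptor was 33.5 kb (interval 32.3 to 34.5), and the 10th and 90th percentiles were 3.28 and 154 kb. Within 1 kb lay 551 peaks (3.97%), within 10 kb 3065 (22.1%, exact binomial interval 21.4 to 22.8) and within 100 kb 11263 (81.1%). Such shares rise with the length of the list measured against, here 17340 receptor peaks. No value for even scatter is given beside them, so they do not by themselves show closeness to receptor peaks. Only 9 peaks were more than 1 Mb from any receptor peak. The nearest ERβ peak lay at a median of 48.3 kb and the nearest ERα peak at 129 kb, from lists of 12184 and 5156 peaks. The nearer of the 2 receptors was ERβ for 9916 peaks (71.4%) and ERα for 3973 (28.6%), while ERβ made up 70.3% of the receptor peaks on these chromosomes. Other mock peaks of the same group were about as near, with a median of 34.5 kb to the nearest one and 22.0% within 10 kb. ERβ peaks touching neither other list lay at a median of 31.6 kb from the nearest ERα or mock peak, 79.6% of them within 100 kb. For such ERα peaks and the nearest ERβ or mock peak the values were 18.6 kb and 89.6%. The lists measured against held 17340 peaks for mock, 20439 for ERβ and 27467 for ERα, so these distances are not on 1 scale and were not tested.

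**Figure D3:**
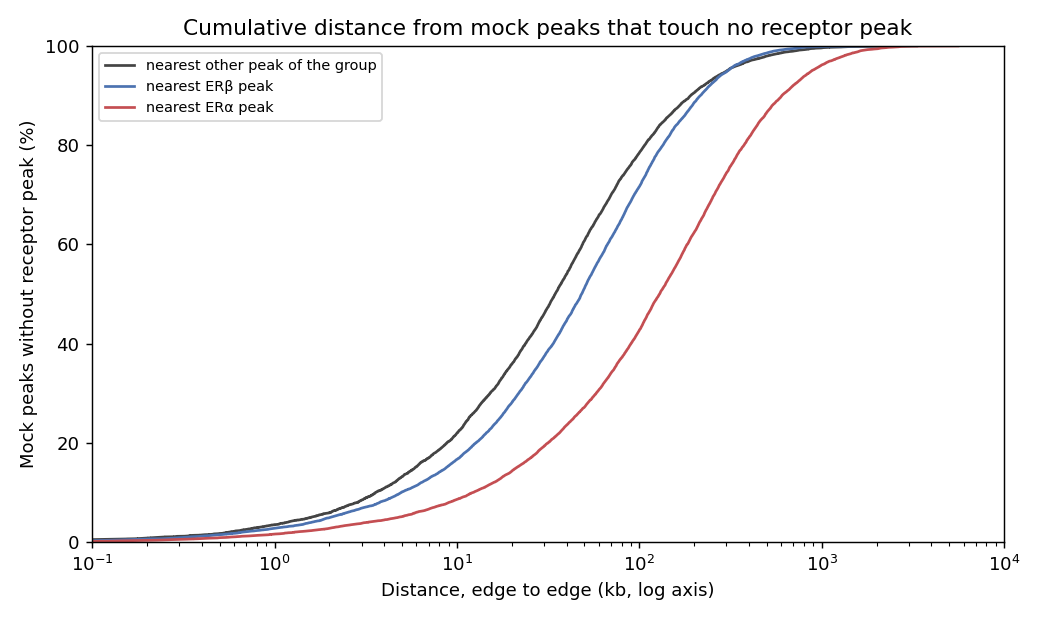
Cumulative share in percent of the 13890 mock peaks without a receptor peak (vertical axis) lying within a given edge-to-edge distance in kb (horizontal log axis) of the nearest other such peak, the nearest ERβ peak and the nearest ERα peak. The curves pass 50% at 34.5, 48.3 and 129 kb.

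The mock peaks that touched receptor peaks were further off. The median distance from a mock peak without a receptor peak to a mock peak with one was 1488 kb, and 60.3% lay more than 1 Mb from any of the 1393. These counts differ in number from the receptor lists, so the distances are not on 1 scale. The 5 peaks furthest from any receptor peak were of levels 7 to 9, as was most of the whole group. Level 7 held 65.8% of the group, level 8 20.7% and level 9 7.95%. The furthest, chr5:142923143-142923641, had a score of 35.16 at level 7 and lay 1499 kb from an ERβ peak. Next came chr5:148806334-148806925 (38.28, level 8), at 1375 kb, chr7:12297538-12298124 (31.04, level 7), at 1331 kb, chr5:61998698-61999300 (45.62, level 9), at 1285 kb, and chr1:83311465-83312018 (32.49, level 7), at 1277 kb.

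Score and level were higher near receptor peaks. Of the 551 peaks within 1 kb of a receptor peak, 9.07% had a score of 50 or more (exact binomial interval 6.81 to 11.8). The share was 5.49% (4.63 to 6.45) from 1 to 10 kb, 3.62% (3.23 to 4.05) from 10 to 100 kb and 2.44% (1.89 to 3.11) from 100 kb to 1 Mb. The median score moved little, from 35.58 within 1 kb to 34.2 beyond 100 kb. Seen by level, 20.9% of level 7 peaks (20.1 to 21.7), 23.0% of levels 8 and 9, 30.04% of levels 10 to 12 (26.6 to 33.6) and 42.4% of the 85 peaks of level 13 or more (31.7 to 53.6) lay within 10 kb of a receptor peak. The same groups had another peak of the mock background within 10 kb at 21.2%, 22.3%, 28.7% and 40.0%. By score, the shares by distance to other peaks of the group had intervals that overlap from each step to the next. The intervals from 1 to 10 kb and from 100 kb to 1 Mb did not overlap, and the share was lower at the longer distance. A score of 50 or more was held by 4.32% (2.69 to 6.53) of those with another within 1 kb, 4.98% (4.17 to 5.89) from 1 to 10 kb, 3.85% (3.44 to 4.31) from 10 to 100 kb and 3.30% (2.68 to 4.01) from 100 kb to 1 Mb. The difference between the trends was not tested.

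Along the genome the peaks were unevenly spread. Chromosomes differed 2.13-fold in density, from 3.92 peaks per Mb on chromosome 1 (Poisson interval 3.69 to 4.16, 1108 peaks) to 8.37 on chromosome 11 (7.78 to 8.99, 757 peaks). The median over the 18 chromosomes was 5.79. Chromosome 15 followed chromosome 11 at 7.98 (7.47 to 8.53), with an overlapping interval. Chromosome 16 came next at 7.16, with an interval overlapping those of chromosomes 2, 9, 14, 15 and 18. At the lower end stood chromosomes 19 at 4.28, 17 at 4.399, 8 at 4.48 and 5 at 4.58, whose intervals overlap. Those of chromosomes 8, 17 and 19 also overlapped the interval of chromosome 1. The 2 autosomes not kept were lower still, at 2.36 on chromosome 10 and 1.26 on chromosome 12, and X held 0.269.

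Score and width were alike from chromosome to chromosome. The chromosome medians of score ran only from 34.1 to 34.96, and those of width from 561 to 569 bp. The share of level 7 was between 60.8% on chromosome 18 and 68.8% on chromosome 3. Chromosome 11, the densest, held 62.0% at level 7 and 3.18 peaks per Mb of level 8 or more, against 1.33 on chromosome 1.

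The share of mock peaks that lacked a receptor peak differed between chromosomes. It was 77.2% on chromosome 1 (exact binomial interval 74.9 to 79.3), 81.1% on chromosome 17, whose interval of 77.4 to 84.5 overlaps that of chromosome 1, 84.7% on chromosome 16 and 86.6% on chromosome 7. On 7 of the 18 chromosomes it was above 95%, up to 97.5% on chromosome 18. Windows of 1 Mb with 20 or more mock peaks, 76 in number, were lower in this share, at 66.3% of 2008 mock peaks, than the other 2368 windows, at 94.6% of 13177. The count that chose them includes mock peaks touching a receptor peak, so choice and share are tied. Chosen instead by 20 or more mock peaks without a receptor peak, 42 windows held 954 such peaks. These 42 windows held a mean of only 1.31 mock peaks touching a receptor peak.

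Receptor peaks that touched neither other list were spread over chromosomes in nearly the same order. Their density differed 1.72-fold between chromosomes for ERβ and 2.07-fold for ERα. Over the 18 chromosomes Spearman's rho with the mock background was 0.94 for ERβ and 0.87 for ERα. These are descriptions of 18 chromosomes that share assembly, mappability and base composition between the lists, and carry no p. Chromosome 11 was the densest in all 3 groups, at 5.98 peaks per Mb for ERβ and 2.30 for ERα, and chromosome 1 was the sparsest in all 3, at 3.49 and 1.11.

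**Figure D4:**
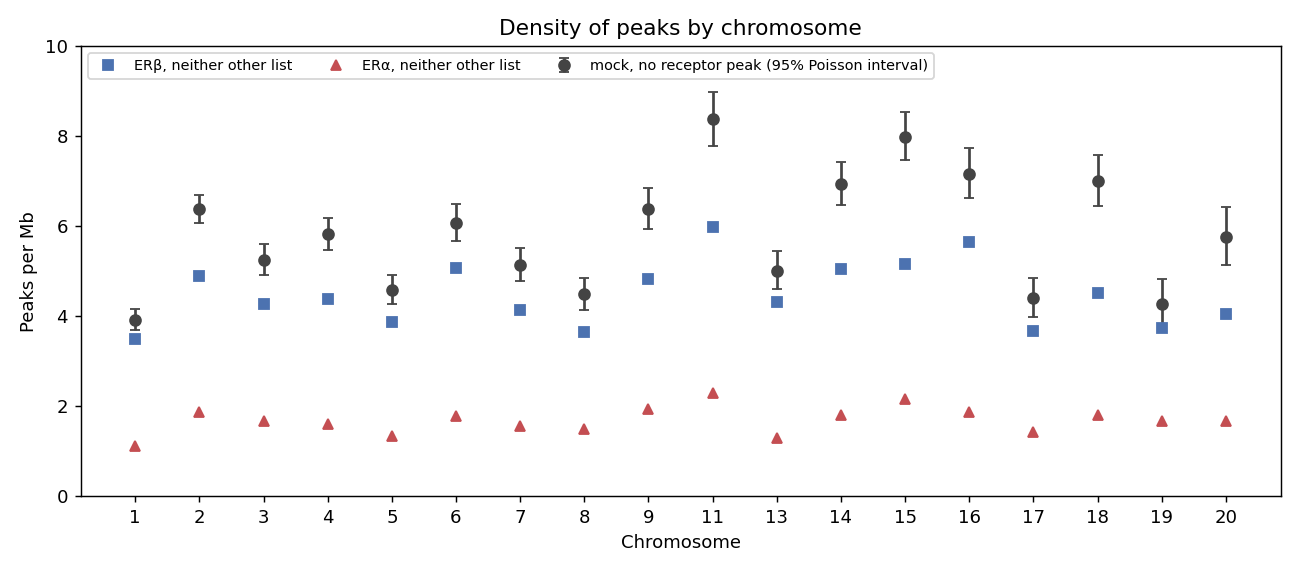
Peaks per Mb of chromosome (vertical axis) on each of the 18 chromosomes kept (horizontal axis), for mock peaks touching no receptor peak, with 95% Poisson intervals, and for ERβ and ERα peaks touching neither other list. The mock points lie between 3.92 on chromosome 1 and 8.37 on chromosome 11, and the receptor points are lowest and highest on the same chromosomes.

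The peaks were also unevenly spread over windows of 1 Mb. The 2444 complete windows held a median of 4 and a mean of 5.65 peaks, with a variance 4.45 times the mean, where independent and even scatter would give a ratio near 1. No peak fell in 241 windows (9.86%), while 489 windows (20.01%) held 10 or more. The 245 fullest windows, chosen by their content, held 29.5% of the peaks. Neighbouring windows were alike, with a Spearman's rho of 0.55 over 2426 adjacent pairs. The ratio of variance to mean was 2.27 for ERβ peaks and 1.72 for ERα peaks touching neither other list. It rises with the mean number per window, which was 4.41 and 1.63 for these, so the ratios are not on 1 scale.

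The fullest window was chr20:53000001-54000000 with 35 of these peaks among 38 mock peaks. It also held 11 ERβ and 9 ERα peaks. The window chr16:89000001-90000000 held 29, chr14:113000001-114000000 and chr15:95000001-96000000 held 28 each, and chr15:74000001-75000000 held 27. In the windows of chromosomes 16 and 15 no mock peak touched a receptor peak, although 7 to 15 ERβ and 2 to 9 ERα peaks lay in each. Scores in the 5 windows were ordinary, with medians between 32.31 and 36.76. Chromosome 20 had the most uneven spread, with a variance 9.35 times the mean and 12 of its 56 windows without a peak, and chromosome 17 was at the other end with a ratio of 3.004.

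The number of these mock peaks in a window went with the number of receptor peaks that touched neither other list. Windows with 0 such mock peaks held a mean of 1.48 ERβ and 0.485 ERα peaks. Windows with 5 to 9 held 5.23 and 1.86, and the 42 windows with 20 or more held 10.4 and 4.43. Spearman's rho over the 2444 windows was 0.65 for ERβ and 0.53 for ERα, and 0.70 for both receptors together. It was 0.63 for ERβ and 0.50 for ERα without the windows of 20 or more mock peaks. With the mock peaks that did touch a receptor peak, rho was 0.25. For ERα with ERβ peaks outside each other and outside mock it was 0.46. Windows share mappability and base composition across the lists, so these are descriptions with no p.

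**Figure D5:**
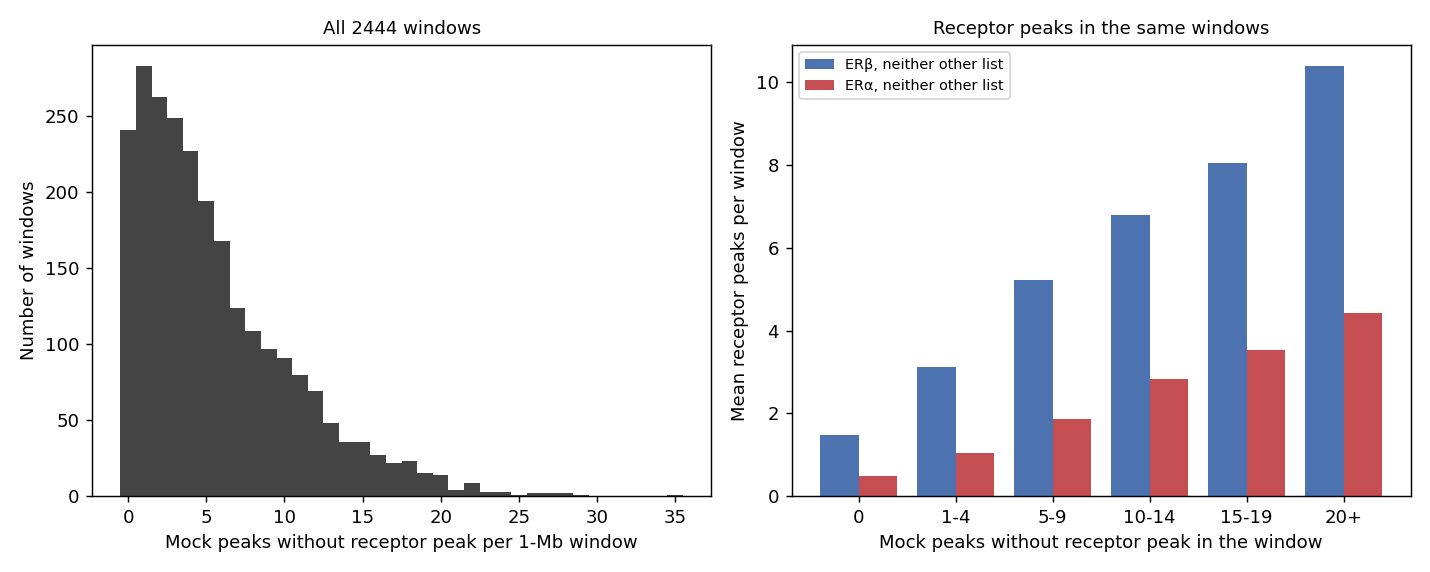
Left, number of 1-Mb windows (vertical axis) by the number of mock peaks without a receptor peak they hold (horizontal axis). Right, mean number per window of ERβ and ERα peaks touching neither other list (vertical axis) in windows grouped by that number, rising from 1.48 and 0.485 in windows with 0 to 10.4 and 4.43 in windows with 20 or more.

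Long stretches lacked these peaks. The longest gap between neighbours was chr19:53953995-60667108, of 6.71 Mb, in which 9 ERβ, 2 ERα and 1 other mock peak lay. It was followed by chr7:114941358-120825824 with 5.88 Mb and chr3:160613168-166357604 with 5.74 Mb. Chromosome 3 also held the next 2, chr3:2100421-7612771 with 5.51 Mb and chr3:8703226-14074111 with 5.37 Mb. Each of the 5 gaps held between 3 and 9 ERβ peaks, and the fourth held 0 ERα peaks.

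At the other end, the distance between neighbours had a median of 74.2 kb (interval 72.2 to 76.2, n = 13872 gaps) and a mean of 176 kb, a ratio of 0.42. Under 1 kb lay 247 gaps (1.78%) and under 10 kb 1671 (12.05%), and 331 gaps reached 1 Mb. Independent and even scatter at the same mean would give a ratio of 0.69 and 5.54% under 10 kb. For ERβ peaks touching neither other list the ratio was 0.54, with 7.45% under 10 kb (even scatter 4.35%). For such ERα peaks it was 0.53, with 4.02% (even scatter 1.63%). Joined at gaps under 10 kb, the mock peaks without a receptor peak formed 1387 runs of 2 or more, which took in 3058 peaks (22.0%). Runs were short: 1164 held 2 peaks, and the 13 longest held 5 each. The first 5 of these by chromosome name in text order, where chr16 comes before chr2, had lengths of 13.001 to 29.4 kb. They were chr1:110180438-110198195, chr14:22070568-22099984, chr14:113806752-113827316, chr15:31238186-31251186 and chr16:89137002-89156659. The run chr14:113806752-113827316 enclosed 0 receptor peaks, while chr14:22070568-22099984 enclosed 3 ERα and 2 ERβ peaks and 2 other mock peaks.

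Density was also higher in the last 2 Mb of many chromosomes, an excess that shrank over longer stretches. In the last 2 Mb before the furthest peak in any list, 391 peaks gave 10.9 per Mb, against 6.14 in the first 2 Mb and 5.58 in between. The last 2 Mb were denser than the chromosome's own mean on 14 of 18 chromosomes, with a median ratio of 1.74. The ratio was 3.48 on chromosome 20 (40 peaks), 3.42 on chromosome 16 (49 peaks) and 2.93 on chromosome 18 (41 peaks). Chromosomes 3, 5, 7 and 8 were below their mean, at 0.0952, 0.437, 0.195 and 0.893. Receptor peaks touching neither other list were denser at these ends too, at 6.61 against 4.38 per Mb for ERβ and 2.67 against 1.62 for ERα. As the span ends at a peak by construction, a small part of the excess is built in. Over the last 5 Mb the density was 7.94 per Mb, against 6.1 in the first 5 Mb and 5.56 in between. Over the last 10 Mb it was 5.73, against 6.12 in the first 10 Mb and 5.62 in between. With each span divided into 10 equal parts, part 10 held 5.44 per Mb and exceeded the chromosome's own mean on 8 of 18 chromosomes. Part 6 held the most peaks (12.7%) and part 8 the fewest (8.10%).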

How the data were processed

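ChIP-seq peak lists of 3 libraries (ERα, ERβ and mock IgG, 1 each) were used. Reads were aligned with Bowtie 1.2, per the submitters' processing notes. Each deposited list gives chromosome, start, end, a peak name beginning with MACS, and the authors' score per peak, while its unit and cutoff, the control library, the genome build and the read depth are stated in none of the labels or lists. The score was used only to describe or filter peaks within its list, and level counts set beside each other come from separately scored lists. The ERβ list lost 2 of 12730 lines with damaged positions. In the mock list 1 line was kept without a score and 2 with a misspelt name. Starts were written from 1, and distances are bases between peak edges. Members were counted by script and, with an equal count, with bedtools 2.31.1. Chromosome spans end at the furthest peak of any list. Windows of 1 Mb were complete windows only (13800 of the 13890 peaks), with peaks placed by midpoint. Shares carry Clopper-Pearson intervals, medians order-statistic intervals and densities exact Poisson intervals, all at 95%. No test was made. Regions named were the 10 highest, 5 widest, 5 furthest, 5 nearest and 5 of smallest overlap, the 5 fullest windows, 5 longest gaps and 5 longest runs. Ties were taken by position, with chromosome names in text order for the runs. Peaks, lists and rules were chosen with earlier results of these data known. Overlap, distance and level scripts were tested on simulated data. Computations ran in Python 3.11.15 with scipy 1.17.1, pandas 2.3.3 and numpy 2.4.6, and plots were drawn with matplotlib 3.10.9.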

Additional observations from a re-analysis of the deposited data

How the results depend on the processing

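Alternatives gave 77 values for 10 results. Of these, 35 stayed within the interval of the reported value or, where it has none, within 1.5 times of it, and 42 moved beyond. Only Spearman's rho over windows could change sign, and it did not. Shares, medians and ratios cannot be negative. The median score and width stayed within their intervals under each overlap, chromosome, receptor score and window setting.
With a reciprocal overlap of 50%, 93.1% of mock peaks lacked a receptor peak, 4.46% of them scored 50 or more, 23.9% lay within 10 kb of a receptor peak, the median distance was 31.8 kb and the median spacing 71.7 kb. With gaps of up to 1 kb counted as touching, 87.3% lacked a receptor peak, 18.8% lay within 10 kb, the median distance was 35.9 kb and the spacing 78.0 kb.
Against receptor peaks scoring 50 or more, 94.7% lacked one, 4.53% scored 50 or more, 3.87% lay within 10 kb and the median distance was 1119 kb, since that list is far shorter. Without windows of 20 or more mock peaks the values were 94.6%, 3.60%, 20.2%, 36.3 kb and a spacing of 82.6 kb. Against ERα alone, 93.9% lacked a peak, 9.85% lay within 10 kb and the median distance was 124 kb. Against ERβ alone the values were 92.6%, 17.5% and 47.4 kb.
Among mock peaks scoring 50 or more (549 without a receptor peak), the median width was 649 bp, the distance 20.9 kb, the share within 10 kb 34.2% and the spacing 1867 kb. The ratio of variance to mean was 1.37, the chromosome ratio 3.33, and rho with receptor peaks of either list touching neither other list 0.30. The rho reported for both receptors together was 0.70. In this setting receptor peaks could touch mock peaks scoring under 50, so the rho values use different receptor peaks. With few peaks per window and chromosome, the variance ratio, chromosome ratio and rho are not on 1 scale with those reported. Merging peaks under 1 kb apart gave a spacing of 76.4 kb. With 5-Mb windows the ratio of variance to mean was 12.1, and with chromosomes 10, 12 and X added the densities differed 31.1-fold.
At level 8 or more in all lists, chosen after the data were seen, 83.4% lacked a receptor peak, 11.8% scored 50 or more, the median score was 40.28, the width 619 bp, the distance 55.7 kb, the share within 10 kb 17.4%, the spacing 212 kb and the ratio of variance to mean 2.64. The last falls with fewer peaks per window. Depth is unknown, and no replicate error was available. No paired analysis was possible because each antibody has 1 library.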

Other observations

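Narrow mock peaks without a receptor peak lay on the flat part of the score bands, which continue without a break into wider peaks. The receptor lists also had a most common narrow-peak score, 39.73 for ERβ and 46.66 for ERα. Widths of up to 400 bp were found in 340 of the 13890 peaks, of which 239 had level 7 and therefore 1 and the same score of 40.97, the most common single score of the group. A further 72 had level 8, 18 had level 9, 10 had level 10 and 1 had level 13. Under the fitted relation a narrower peak has the higher score at the same level. The 327 peaks narrower than 400 bp had a median score of 40.97, above the 32.54 of the 8508 peaks from 500 to 600 bp wide. The score of the narrow level 7 peaks lay above 38.23, the median of all 2879 peaks of level 8, whose scores ran from 30.01 to 50.09.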
